A study of Homo sapiens with 16 samples.

Results

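Replicate 1 comprises the 4 libraries that carry the number 1 in their titles, 1 from each treatment group, out of 16 poly(A) RNA libraries. The other 12 carry the numbers 2 to 4. All were made from ASC52telo, an immortalized line of human adipose-derived mesenchymal stem cells (MSCs), so the replicates are cultures of 1 line and not donors. In MmC-/GDF11- the cells had neither agent, and in MmC-/GDF11+ they had growth differentiation factor 11 (GDF11), a cytokine of the TGF-beta family, at 10 ng/mL. MmC+/GDF11- cells had been exposed for 18 h to mitomycin C (MmC), which alkylates DNA, at 1.5 µg/mL to make them senescent, and MmC+/GDF11+ cells had both agents. RNA was taken after 10 days in every group. The number was selected on measured values, because earlier results of the same libraries had shown its gene counts to stand apart. Differences between replicate 1 and the other numbers are therefore given as a description, with no p-value. The labels do not say whether libraries with the same number shared a culture, a passage or a date, so what the number stands for cannot be told apart here from any of these. The authors list batch effects from technical issues among the limits of their study, without naming the libraries. The part of such effects in replicate 1 was not tested.

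Cultured MSCs pass between proliferation, in which E2F factors switch on the genes of DNA replication and the MuvB complex those of mitosis, and arrest, in which p53 targets such as CDKN1A are high. Senescent cells stay arrested and release cytokines, growth factors and proteases, the senescence-associated secretory genes. Stromal cells also lay down collagens, proteoglycans and elastic fibres, and their glycolytic and amino acid genes follow oxygen and nutrient supply.

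Total counts were between 71275337 and 144204979 per library, and the 4 replicate 1 libraries held 71275337 to 107776837. Genes with at least 1 count numbered 27397 and 28549 in the replicate 1 MmC+ libraries, against 29231 to 31833 in the other MmC+ libraries, while the MmC- ranges overlapped. The 16 libraries carry the same sequencing run in their labels. Of 10 MSC surface markers, 8 were tested, and in replicate 1 the defining markers THY1, NT5E and ENG were at 1429 and 1292, 551 and 586, and 612 and 555 CPM (counts scaled to the same library total) without MmC. THY1 was higher and CD44 lower than in the other numbers. Of 14 blood cell markers 9 were too low to test, and PTPRC (CD45) was at 0.507 and 0.556 without and 0.547 and 0.793 CPM with MmC. Of 11 endothelial markers tested, TEK and EGFL7 were higher and PECAM1 and ROBO4 lower in replicate 1, and 3 of 6 neural markers were higher, among them MBP. Of 7 epithelial and mesothelial markers 1 was higher and 1 lower, and of 8 pericyte markers 1 was higher. Higher and lower here mean called over all groups as defined below, where 15.1% of all genes were higher and 15.5% lower. The endothelial, epithelial and pericyte counts lie near those shares. The part of these markers in the results was not tested. In such bulk samples, fewer cells of a type and less RNA per cell cannot be told apart.

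Replicate 1 lay apart from the other numbers more clearly with MmC than without it. Between 2 MmC+ libraries, 1 of replicate 1 and 1 of another number, the median absolute log2 difference over genes was 0.249 to 0.296 (12 pairs), whereas pairs among numbers 2 to 4 with different numbers gave 0.0856 to 0.202, so the ranges did not overlap. The replicate 1 MmC+ libraries without and with GDF11 differed from each other by 0.0725. Same-numbered libraries of numbers 2 to 4 were also close, at 0.0627 to 0.112, and the fit by library counts them as independent. Without MmC the ranges did overlap, at 0.139 to 0.284 for replicate 1 with the others and 0.106 to 0.249 among the others. The replicate 1 MmC- libraries without and with GDF11 differed from each other by 0.154. Same-numbered MmC- libraries of numbers 2 to 4 differed by 0.0792 to 0.128. The MmC-/GDF11+ replicate 1 library was nearer to MmC-/GDF11- replicate 3, at 0.139, than to the other replicate 1 library of its arm. Every pair of libraries differed by more than the sampling noise of its counts, and none was treated as a duplicate. After the 4 group means had been removed, the first component of log2 CPM, with 37.7% of the variance, placed the 4 replicate 1 libraries at 33.0, 24.96, 63.0 and 64.9 and the 12 others below 0. The second, with 12.3%, placed the replicate 1 MmC- libraries at 39.7 and 28.6 and the MmC+ libraries at -17.1 and -17.8.

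**Figure D1:**
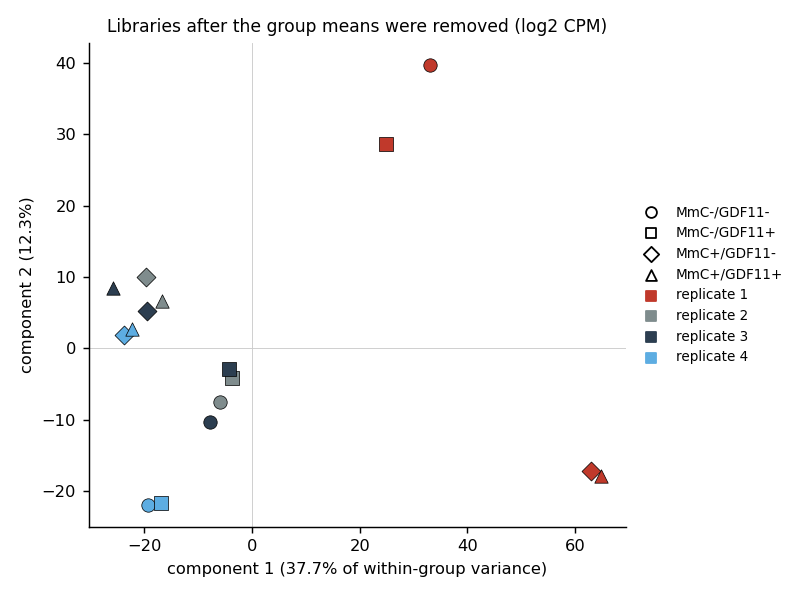
Scores of the 16 libraries on the first and second component of log2 CPM after the mean of each treatment group was removed (component units, with the share of variance on each axis). Colour gives the replicate number and marker shape the group. The 4 replicate 1 libraries lie to the right of 0, at 24.96 to 64.9, with the MmC- libraries high and the MmC+ libraries low on the second component.

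The numbers 2 to 4 were not alike either. Replicate 1 was the highest library of its group in all 4 groups for 1785 genes (9.34% of 19103 tested) and the lowest in all 4 for 1636 (8.56%), together 17.9%. The same count was 10.3% for replicate 4, 7.09% for replicate 2 and 0.937% for replicate 3. Replicate 1 held 33.8% of the sum of squares within groups, replicate 4 held 14.8%, replicate 2 held 11.4% and replicate 3 held 7.57%.

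Fitted over all 4 groups, 5830 of 19103 genes (30.5%) were called different in replicate 1, 2876 higher (15.1%) and 2954 lower (15.5%). A gene was called when its p, adjusted over all genes in the quasi-likelihood fit of edgeR, was below 0.05, which serves here as a descriptive threshold only. A difference of 1 on the log2 scale is 2-fold, and errors are standard errors, with 4 against 12 libraries over all groups and 2 against 6 within an arm. The median log2 difference of all genes was -0.017, and 414 genes were over 2-fold higher and 658 over 2-fold lower. The count was 3551 without the MmC+/GDF11- replicate 1 library, 3746 without the MmC+/GDF11+ one, and 2514 of 20280 (12.4%) when libraries of the same number and MmC arm were summed to 8 units.

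The 10 highest and the 10 lowest genes are given for protein-coding genes that were called and had replicate 1 as the extreme library of all 4 groups, so that their shared direction in the arms follows from the choice. HSD17B6 (ENSG00000025423.11, chr12:56752161-56787790 on GRCh38), a hydroxysteroid dehydrogenase, stood at 12.3 and 11.2 CPM in replicate 1 without MmC (GDF11- first, as in every such pair) where the other 6 libraries ranged from 1.91 to 2.74 (median 2.52). With MmC it stood at 10.1 and 10.1 against 1.28 to 1.99 (median 1.68), and the log2 difference over all groups was 2.43 ± 0.11. SYNPO2 (ENSG00000172403.11, chr4:118850688-119061247), an actin-binding protein of smooth muscle, was at 95.3 and 88 CPM without MmC against 22.8 to 28.6 (median 25.3), and at 194 and 179 with MmC against 47.7 to 63.2 (median 61.1). The SYNPO2 difference of 1.76 ± 0.074 was nearly the same in the arms, 1.84 ± 0.10 and 1.68 ± 0.10. SFRP4, a secreted WNT antagonist, was at 14.5 and 10.5 CPM against 2.22 to 3.17 (median 2.98) without MmC and at 18.9 and 21.2 against 4.18 to 6.04 (median 4.89) with it. CD36, the fatty acid transporter, was at 23.5 and 15.4 against 1.78 to 5.21 (median 3.74) without MmC and 12.1 and 13.2 against 2.12 to 4.88 (median 2.69) with it. The other 6 of the 10 highest were FMO1, a flavin monooxygenase (2.37 ± 0.38), ACAN, the cartilage proteoglycan aggrecan (2.12 ± 0.14), MAN1C1, a Golgi mannosidase (2.07 ± 0.17), APOD, a lipid-binding apolipoprotein (1.84 ± 0.21), CGREF1 (1.76 ± 0.14) and ST8SIA1, a ganglioside sialyltransferase (1.73 ± 0.24).

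Chosen in the same way, the 10 lowest genes all had a positive MmC difference in replicates 2 to 4, from 0.54 to 5.95 on the log2 scale. PTGS2 (ENSG00000073756.13, chr1:186671791-186680922), the inducible cyclooxygenase of prostaglandin synthesis, was at 37.7 and 34.4 CPM in replicate 1 with MmC, against 323 to 559.6 (median 420.5) in the other 6 libraries. Without MmC it was at 4 and 4.35 against 5.92 to 8.78 (median 6.96). The difference was -0.77 ± 0.21 without and -3.61 ± 0.23 with MmC on the log2 scale, larger with MmC. PTHLH, a parathyroid hormone-like ligand, was at 7.21 and 6.93 CPM with MmC against 44.9 to 67.9 (median 54), and AREG, a ligand of the EGF receptor, at 11.5 and 11.8 against 69.3 to 98.8 (median 83.4). STC1, the glycoprotein stanniocalcin, was at 4.51 and 4.68 against 9.5 to 16.9 (median 10.9) without MmC and at 109 and 104 against 475 to 582 (median 548) with it. Also among the 10 lowest were SERPINB4, a protease inhibitor (-2.28 ± 0.39), TNFRSF13B, a TNF receptor family member (-1.89 ± 0.21), GALNT15, which starts O-linked glycans (-1.81 ± 0.28), MILR1, an immunoglobulin-like receptor (-1.63 ± 0.24), TSLP, an epithelial cytokine (-1.57 ± 0.30), and TMEM158, a membrane protein induced by RAS (-1.48 ± 0.34).

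**Figure D2:**
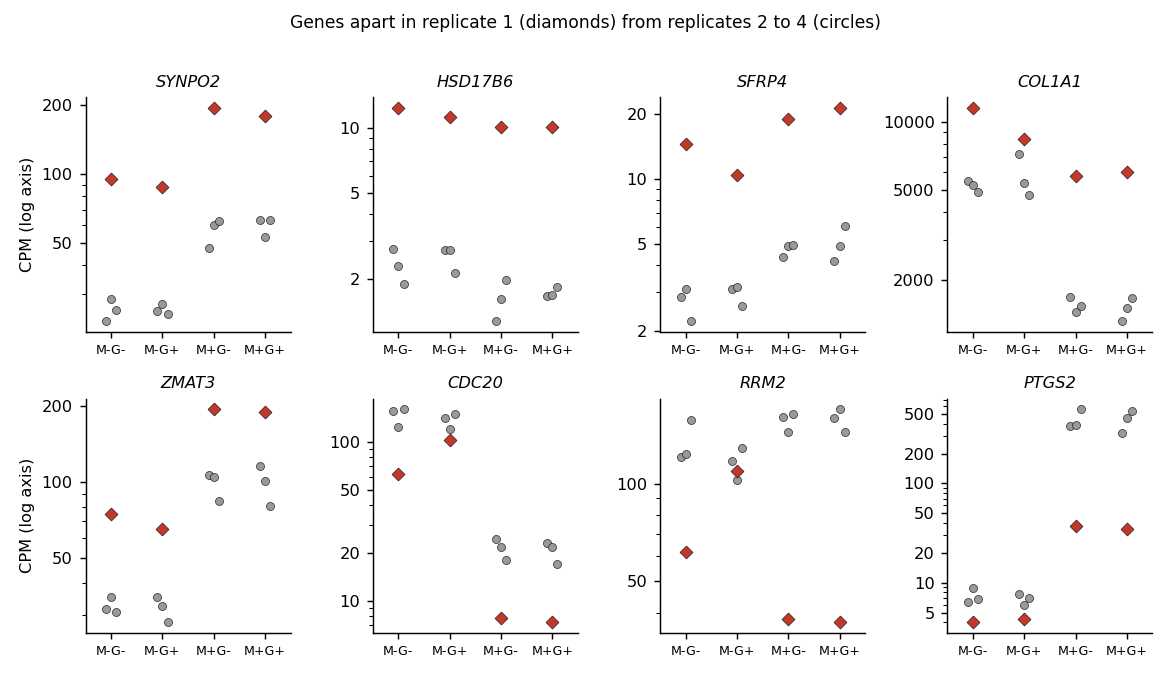
CPM on a log axis of 8 genes in the 4 treatment groups (M for MmC, G for GDF11), with replicate 1 as red diamonds and replicates 2 to 4 as grey circles. SYNPO2, HSD17B6, SFRP4, COL1A1 and ZMAT3 have the diamond above the circles in all 4 groups, and CDC20 and PTGS2 below them. RRM2 has it within the circles in MmC-/GDF11+.

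Proliferation genes were lower in replicate 1. Of 36 genes of G1/S and DNA replication, 33 were called lower over all groups and none higher (median -0.79), and of 36 genes of mitosis and cytokinesis all 36 were lower (median -0.88), against 15.5% of all genes called lower. With libraries summed to 8 units the counts were 25 and 30. RRM2, the small subunit of ribonucleotide reductase, was at 38.4 and 37.4 CPM in replicate 1 with MmC against 144.1 to 169.5 (median 160.2). Without MmC it was at 61.8 and 109.7 against 102 to 157 (median 122), so that the GDF11+ library lay inside the range of the others and the GDF11- library under it. MCM7, a subunit of the replicative helicase, was at 79.1 and 114 without MmC against 126 to 189.6 (median 156) and at 44.2 and 41.7 with MmC against 117 to 137 (median 128). E2F2, an activating E2F factor (-1.31 ± 0.32), and ORC1, of the origin recognition complex (-1.27 ± 0.28), had the largest differences of the first list. CDC20 (ENSG00000117399.14, chr1:43358981-43363203), which activates the anaphase-promoting complex, was at 63.1 and 102 CPM without MmC against 120.2 to 160.3 (median 145) and at 7.83 and 7.33 with MmC against 17 to 24.6 (median 21.7). It was below every other library of each arm. BIRC5, which encodes survivin, was at 70.9 and 110.4 against 134 to 169 (median 145) and at 11.5 and 11.6 against 28.8 to 39.3 (median 35.4). KIF2C, a kinesin that depolymerizes microtubules (-1.16 ± 0.17), and CDC25C, the phosphatase that activates CDK1 (-1.14 ± 0.18), were lower too. Of 20 replication-dependent histone genes tested, 9 were lower and none higher, with a median of -0.89 without MmC and -0.48 with it. H2BC11 was at 0.793 and 1.26 CPM without MmC against 2.19 to 3.02 (median 2.58), and such transcripts, which lack a poly(A) tail in cycling cells, are caught only in part by poly(A) selection.

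Many promoters of these lists held elements through which such genes are known to be switched on, and others did not. RefSeq windows of GRCh38.p14 from 250 bases before to 50 after the start were found for 30 of the 36 mitotic genes and 32 of the 36 replication genes. On either strand, with overlapping matches counted, a CCAAT box together with a cell cycle homology region (TTTGAA or TTCGAA) was in 18 of the 30 (60.0%), against 6.58% of 27305 promoters and 5.0% of the 12539 of tested genes. An E2F site (TTTGGCGC or TTTCGCGC) was in 11 of the 32 (34.4%), against 1.18% and 1.88%. These shares describe the lists, not replicate 1. The 250 bases before the start are shown for the members with a match that had the lowest log2 differences in each list, to set the elements beside the values above, with those elements in capitals (in CDC20 and HMMR the CCAAT boxes and homology regions, in E2F2 and MCM7 the E2F site). HMMR encodes a spindle-associated hyaluronan receptor and was at 29.4 and 56.7 CPM without MmC against 63.2 to 72 (median 68.2) and 5.37 and 5.54 with MmC against 12.2 to 19.2 (median 15.8).
CDC20 (chr1:43358731-43358980, plus strand): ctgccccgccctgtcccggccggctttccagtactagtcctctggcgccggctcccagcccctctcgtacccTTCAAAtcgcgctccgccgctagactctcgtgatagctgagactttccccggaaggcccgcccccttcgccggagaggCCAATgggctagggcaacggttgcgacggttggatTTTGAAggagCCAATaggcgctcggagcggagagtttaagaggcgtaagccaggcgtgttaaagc
HMMR (chr5:163460382-163460631, plus strand): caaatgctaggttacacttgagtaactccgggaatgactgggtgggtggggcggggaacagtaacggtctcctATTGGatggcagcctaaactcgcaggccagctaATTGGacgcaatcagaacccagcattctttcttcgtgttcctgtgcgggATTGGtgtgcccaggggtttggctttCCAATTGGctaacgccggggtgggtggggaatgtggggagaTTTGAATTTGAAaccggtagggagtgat
E2F2 (chr1:23531234-23531483, minus strand): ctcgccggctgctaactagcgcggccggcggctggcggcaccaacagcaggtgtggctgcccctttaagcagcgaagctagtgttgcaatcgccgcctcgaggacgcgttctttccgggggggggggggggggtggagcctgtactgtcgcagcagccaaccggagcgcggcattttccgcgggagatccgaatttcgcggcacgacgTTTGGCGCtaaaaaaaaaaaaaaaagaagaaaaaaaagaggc
MCM7 (chr7:100101398-100101647, minus strand): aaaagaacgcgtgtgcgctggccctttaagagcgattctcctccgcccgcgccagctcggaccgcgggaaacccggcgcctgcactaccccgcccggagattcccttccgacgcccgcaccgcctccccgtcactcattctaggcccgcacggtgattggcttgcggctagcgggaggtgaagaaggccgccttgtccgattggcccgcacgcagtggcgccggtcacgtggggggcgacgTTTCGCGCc

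Targets of p53 were higher in replicate 1 of either arm. Over all groups 23 of 28 were called higher and none lower, with a median of 0.57, and 19 had replicate 1 as the highest library in all 4 groups, against 15.1% and 9.34% of all genes. SPATA18, a mitochondrial quality control protein, was at 19.9 and 19.1 CPM without MmC against 6.07 to 8.41 (median 6.54) and at 91.5 and 86.6 with MmC against 41 to 45.2 (median 42.7). ZMAT3, an RNA-binding protein, was at 75.1 and 65.2 against 28 to 35.3 (median 32.1) and at 194 and 188 against 80.5 to 116 (median 103). CDKN1A, the p21 inhibitor of cyclin-dependent kinases, was at 329.8 and 375 against 166 to 210.5 (median 189) and at 2031 and 2007 against 1040 to 1496 (median 1372). None of these 3 overlapped the other numbers in either arm, and MDM2, the ligase that degrades p53 (0.82 ± 0.093), BTG2 (0.99 ± 0.086) and POLH, a translesion polymerase (0.86 ± 0.089), were higher as well. In MmC+ the targets GDF15, a stress cytokine (-0.68 ± 0.17), and SESN2 (-0.36 ± 0.11) were lower, although both were higher without MmC (1.25 ± 0.16 and 0.60 ± 0.11). CDKN1A, MDM2, GDF15 and SESN2 were picked with their values already known.

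Matrix and contractile genes were higher. Over all genes 15.1% were called higher and 15.5% lower. COL1A1, the main chain of type I collagen, was at 11530 and 8437 CPM without MmC against 4774 to 7226 (median 5331) and at 5768 and 6034 with MmC against 1319 to 1689 (median 1519). COL1A1, COL1A2 and COL3A1 together took 2.74% and 2.00% of the counts in replicate 1 without MmC, against 1.44% to 1.86%, and 1.59% and 1.61% with MmC, against 0.477% to 0.663%. Of 22 collagens 14 were higher and 1 lower (median 0.54). The lower one was COL10A1 (-0.94 ± 0.31), the collagen of hypertrophic cartilage, which was named after its value was seen. Of 23 genes of collagen processing and crosslinking 15 were higher and none lower, among them LOX, the lysyl oxidase, at 2386 and 2397 against 1090 to 1432 (median 1275) without MmC and 5111 and 5100 against 1593 to 2238 (median 1811) with it. POSTN, the matrix protein periostin, differed by 1.11 ± 0.091. Of 21 small leucine-rich proteoglycans and elastic matrix genes 15 were higher and none lower, and their median of 0.93 was the highest of all 42 lists. FMOD, the collagen-binding proteoglycan fibromodulin, was at 52.5 and 42.1 without MmC against 9.51 to 11.6 (median 11.5) and at 138 and 137 with MmC against 49.2 to 68.1 (median 52.7). ASPN, asporin, was at 70.1 and 78.7 against 13.1 to 29.9 (median 20.7) and at 15.6 and 18 against 3.9 to 6.29 (median 5.37). MFAP4, a microfibril protein, differed by 1.33 ± 0.11 and FBLN2, fibulin 2, by 1.40 ± 0.17. Neither proteoglycan overlapped the other numbers. Of 19 contractile genes 13 were higher and 1 lower, with TAGLN, transgelin, at 1433 and 1773 against 652 to 1126 (median 892) without MmC and at 1330 and 1421 against 314 to 656 (median 566) with it. LMOD1, leiomodin (1.18 ± 0.18), and CNN1, calponin (1.01 ± 0.099), were higher too. Of 22 YAP/TAZ-TEAD targets 9 were higher and 1 lower, but the classical target CCN2 overlapped the other numbers with MmC, at 427 and 461 against 119.6 to 464 (median 326).

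Within the MmC- arm 2533 genes (13.3%) were called, 1383 higher (7.24%) and 1150 lower (6.02%), and within the MmC+ arm 6442 (33.7%), 3226 higher (16.9%) and 3216 lower (16.8%). Of these, 1450 were called in both arms in the same direction, which is 57.2% of the MmC- list and 22.5% of the MmC+ list, and 162 in opposite directions. The arms share no library. The MmC- count was 421 without the MmC-/GDF11- replicate 1 library, 1687 without the MmC-/GDF11+ one and 1649 without replicate 3 of every group. The MmC+ count was 2977 without the MmC+/GDF11- and 3016 without the MmC+/GDF11+ replicate 1 library. On the sums of 8 units, 606 (2.99%) and 3261 (16.1%) of 20280 genes were called, 473 higher and 133 lower without MmC and 1583 and 1678 with it. Against 2-fold, 31 were higher and 7 lower without MmC and 109 and 371 with it. The genes named next were chosen among called protein-coding genes with a mean log2 CPM of at least 1. They also had replicate 1 extreme in both groups of the arm, so genes outside these limits could differ more. Of those within them, the 5 highest without MmC were FNDC1 (2.93 ± 0.50), CD36 (2.50 ± 0.35), APOD (2.28 ± 0.29), HSD17B6 (2.28 ± 0.15) and SFRP4 (2.13 ± 0.15). The 5 lowest were PFKFB4 (-1.72 ± 0.17), TCAF2 (-1.59 ± 0.15), STC1 (-1.43 ± 0.21), TNFRSF13B (-1.36 ± 0.20) and H2BC11 (-1.32 ± 0.17). With MmC the highest were FMO1 (2.81 ± 0.52), HSD17B6 (2.58 ± 0.15), MAN1C1 (2.38 ± 0.22), ACAN (2.37 ± 0.20) and ST8SIA1 (2.16 ± 0.29), and the lowest IL11 (-4.65 ± 0.56), IL1RN (-4.40 ± 0.32), HAS1 (-4.17 ± 0.56), NR4A1 (-3.99 ± 0.19) and MMP3 (-3.78 ± 0.52).

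**Figure D3:**
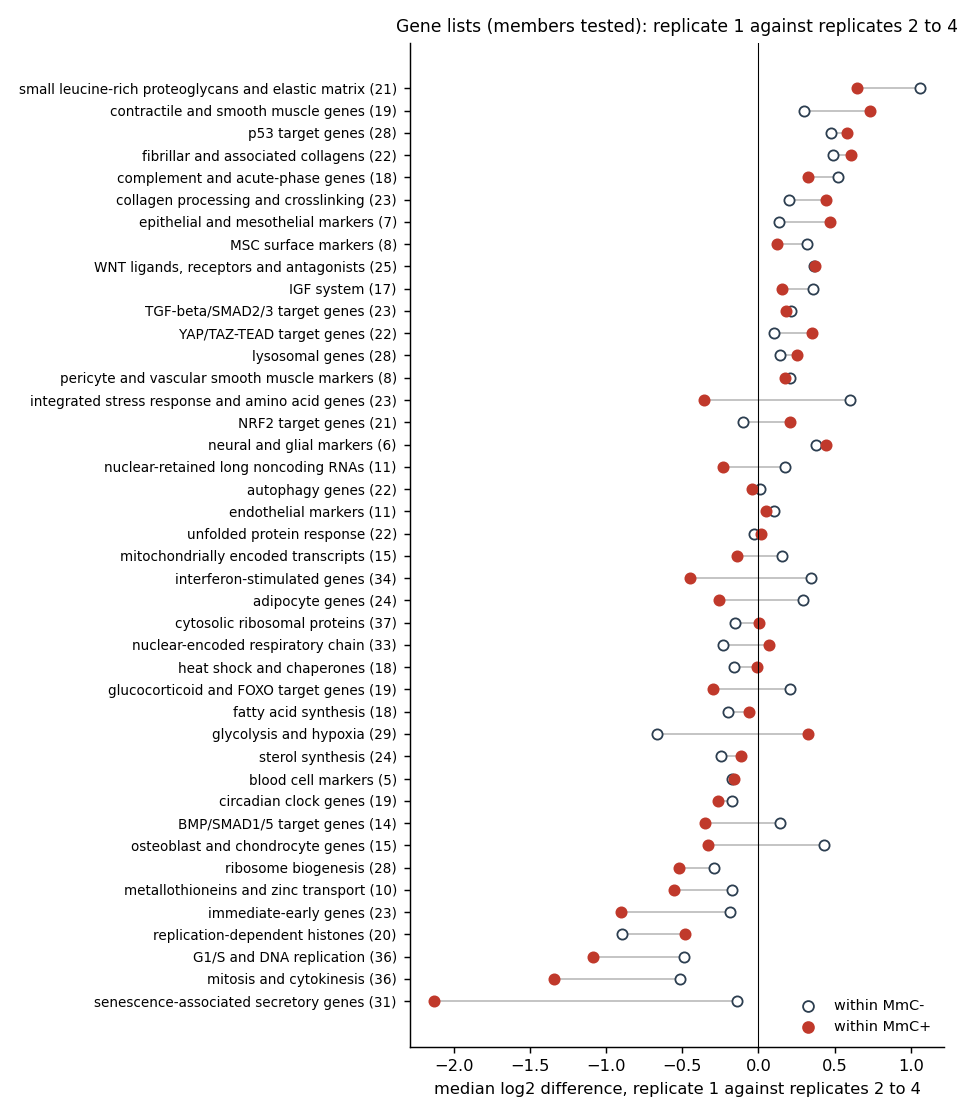
Median log2 difference of replicate 1 from replicates 2 to 4 over the tested members of each gene list, within MmC- (open circles) and within MmC+ (red circles); the number of tested members is in brackets. Proteoglycan, contractile and p53 target lists lie right of 0 in both arms and the proliferation lists left of 0 in both. Glycolysis runs from -0.66 without MmC to 0.32 with it, and the integrated stress response from 0.60 to -0.36.

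Whether the replicate 1 difference was the same with and without MmC was tested as the interaction of replicate 1 with MmC, which also asks whether the MmC difference was the same in the cultures. This contrast is orthogonal to the one that singled out the number. However, the low IL6 and CSF3 values of the MmC+/GDF11- replicate 1 library were known when the replicate was chosen. That choice thus bore on the MmC+ arm and so on this contrast. Its adjusted p-values therefore serve as a description too, the more so for genes named with their values known. At an adjusted p under 0.05 by edgeR 1895 genes (9.92%) differed between arms, 875 (4.58%) with the replicate 1 difference higher in MmC+ and 1020 (5.34%) with it lower. The split was uneven for large differences, with 179 genes over 2-fold higher and 555 over 2-fold lower, and with 10 and 84 genes past a test against 2-fold. Of them 1659 had an MmC difference in replicates 2 to 4. In replicate 1 that difference was smaller and of the same sign for 861, of opposite sign for 559 and larger for 239. Keeping genes with a called MmC difference in replicates 2 to 4 favours a smaller one in replicate 1. The signs were taken without a threshold, so values near 0 count too. MmC itself was called for 12713 genes (66.5%) in replicates 2 to 4, with 6 against 6 libraries, and for 6482 (33.9%) in replicate 1, with 2 against 2. The interaction count was 624 and 652 without the MmC+/GDF11- or the MmC+/GDF11+ replicate 1 library, 981 and 903 without the MmC-/GDF11- or the MmC-/GDF11+ one, and 765 without replicate 3 of every group. On the sums of 8 units it was 315 of 20280 (1.55%), 70 positive and 245 negative, and the adjusted p from these sums is given with the genes below. With the number alone as the unit, 1 against 3, no exact permutation test could go below 0.25.

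**Figure D4:**
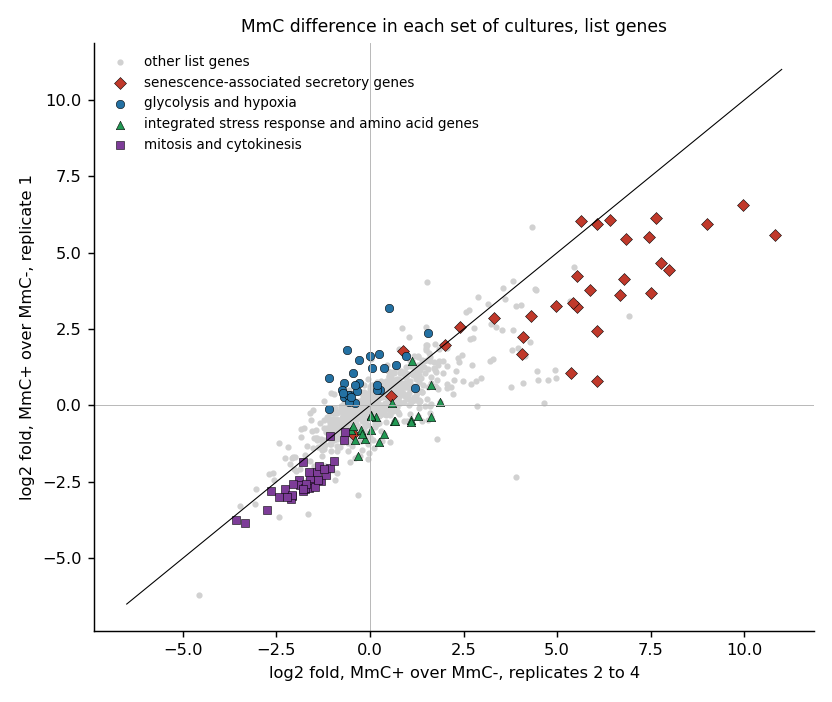
Log2 difference between MmC+ and MmC- for every gene on the lists, in replicates 2 to 4 (x axis) and in replicate 1 (y axis), with the line of equality. Most secretory genes (red diamonds) lie to the right of 0 and below the line, most glycolysis genes (blue circles) above it, and most integrated stress response genes (green triangles) and mitotic genes (purple squares) below it.

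The senescence-associated secretory list had the lowest median interaction of the 42 lists (-1.93). Their median MmC difference was 5.88 in replicates 2 to 4 and 3.62 in replicate 1. Within MmC+ 26 of 31 were called lower in replicate 1 and 2 higher (median -2.13), and without MmC 3 lower and 3 higher (median -0.14). Over all genes 16.8% were lower and 16.9% higher with MmC, and 6.02% and 7.24% without it. The interaction was negative for 19 and positive for 1 of the 31, against 5.34% and 4.58% of all genes. On sums it was negative for 8 of 30, and all genes had a median interaction of 0.013 by library. IL6 (ENSG00000136244.12, chr7:22725884-22732002), the inflammatory cytokine, was at 146 and 134 CPM in replicate 1 with MmC against 663 to 911 (median 799), and at 6.17 and 6.73 without MmC against 2.48 to 3.72 (median 2.98). It was thus above the other numbers without MmC and below them with it, and the interaction was -3.56 ± 0.21, which is given with no p because low IL6 values were known beforehand, as were those of CSF3. Both genes are among the members counted above. LIF, a cytokine of the same family, was at 57.8 and 53.9 with MmC against 405 to 580.1 (median 521), and at 4.51 and 4.57 without MmC against 4.5 to 5.86 (median 4.84) (interaction -3.05 ± 0.17, adjusted p = 3.1e-08, adjusted p on sums = 0.0002). IL33, an alarmin, was at 12 and 11.6 with MmC against 69.7 to 123 (median 79) and at 2.23 and 2.15 without it against 1.13 to 1.69 (median 1.27) (interaction -3.63 ± 0.28, adjusted p = 1.1e-06, adjusted p on sums = 0.0014). AREG had an interaction of -2.30 ± 0.24 (adjusted p = 1.3e-05, adjusted p on sums = 0.00186) and CXCL3, a neutrophil chemokine, of -1.41 ± 0.17 (adjusted p = 6.3e-05, adjusted p on sums = 0.0147). IL11, another cytokine of the IL6 family, was at 1.98 and 1.94 CPM with MmC against 21.9 to 90.7 (median 49.9), and its interaction of -4.33 ± 0.76 (adjusted p = 0.0044) was lost on sums (adjusted p on sums = 0.101), as was that of MMP3, the protease stromelysin (-3.83 ± 0.63, adjusted p = 0.00318, adjusted p on sums = 0.132). CCL2, a monocyte chemokine, was at 383 and 377 with MmC against 413 to 577 (median 539), and CSF3, a colony-stimulating factor, at 0.628 and 0.588 against 11.9 to 38.5 (median 27.7), both below the other numbers. EREG, an EGF receptor ligand, was at 53.1 and 50.7 with MmC against 254 to 364 (median 308), and its interaction (-1.84 ± 0.42, adjusted p = 0.015) was lost without any of 3 replicate 1 libraries and on sums (adjusted p on sums = 0.143).

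Some secretory genes were not lower with MmC. ICAM1, the leukocyte adhesion molecule, was higher in replicate 1 of both arms, at 75.3 and 76.4 CPM against 28.2 to 35.9 (median 29.4) without MmC and at 295 and 309 against 103 to 130 (median 126) with it, with an interaction of -0.015 ± 0.14 (adjusted p = 0.966, adjusted p on sums = 0.979). TNFAIP3, a brake on NF-kB signalling, was at 143 and 133 with MmC against 133 to 143 (median 137), values at the edges of the range of the others. IL6, LIF, IL33, CCL2, CSF3 and the genes of this paragraph were added with their values in view.

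Beyond that list, NR4A1 (ENSG00000123358.20, chr12:52022832-52059507), a nuclear receptor and immediate-early gene, was at 5.97 and 5.96 CPM in replicate 1 with MmC against 73.1 to 109 (median 98.2), and at 3.3 and 3.45 without MmC against 2.78 to 4.35 (median 3.48). Its log2 difference between MmC+ and MmC- was 4.76 ± 0.12 in replicates 2 to 4 and 0.82 ± 0.20 in replicate 1 (interaction -3.94 ± 0.23, adjusted p = 3.4e-08, adjusted p on sums = 0.0002). Its relative NR4A2 was at 3.54 and 3.29 with MmC against 30.6 to 43.1 (median 38.5) (interaction -3.35 ± 0.26, adjusted p = 7.2e-07, adjusted p on sums = 0.00046). Of 23 immediate-early genes 12 were lower over all groups and none higher, and 8 had a negative interaction and none a positive one. FOS was at 1.57 and 1.3 with MmC against 4.93 to 8.9 (median 6.17) and EGR1 at 49.9 and 36.1 against 103 to 233 (median 122), with interactions of -0.97 ± 1.04 (adjusted p = 0.626, adjusted p on sums = 0.827) and -0.45 ± 0.93 (adjusted p = 0.818, adjusted p on sums = 0.925). BMP6, a bone morphogenetic ligand, was at 5.09 and 4.95 without MmC against 1.69 to 2.16 (median 1.81) and at 9.48 and 9.46 with MmC against 42 to 71.9 (median 58.5) (interaction -4.05 ± 0.25, adjusted p = 5.6e-08, adjusted p on sums = 0.00027). Replicate 1 was above the other numbers in one arm and below them in the other. GDF5, a ligand of the same family, went the other way, at 5.82 and 5.54 against 6.98 to 10.6 (median 9.44) without MmC and at 10.5 and 11.3 against 2.07 to 3.95 (median 2.88) with it (interaction 2.55 ± 0.30, adjusted p = 6.7e-05, adjusted p on sums = 0.0122), and 35.4% of its exons overlap a gene on the opposite strand. TCAF2, which binds TRP channels, also had a positive interaction (2.52 ± 0.20, adjusted p = 1.1e-06, adjusted p on sums = 0.00186). HAS1, a hyaluronan synthase, was at 8.33 and 7.18 with MmC against 62.1 to 238 (median 145), and its interaction of -4.52 ± 0.91 (adjusted p = 0.01) was lost without the MmC-/GDF11+ replicate 1 library (0.115), without the MmC+/GDF11- one (0.0517) and on sums (adjusted p on sums = 0.137). FNDC1, a fibronectin domain protein, was at 16.6 and 10.3 without MmC against 1.43 to 2.1 (median 1.71) and at 42.8 and 32.7 with MmC against 30.9 to 137 (median 86.4), and its interaction of -4.05 ± 0.77 (adjusted p = 0.00752) was lost without the MmC+/GDF11- (0.0668) or the MmC+/GDF11+ replicate 1 library (0.0784) and on sums (adjusted p on sums = 0.195).

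**Figure D5:**
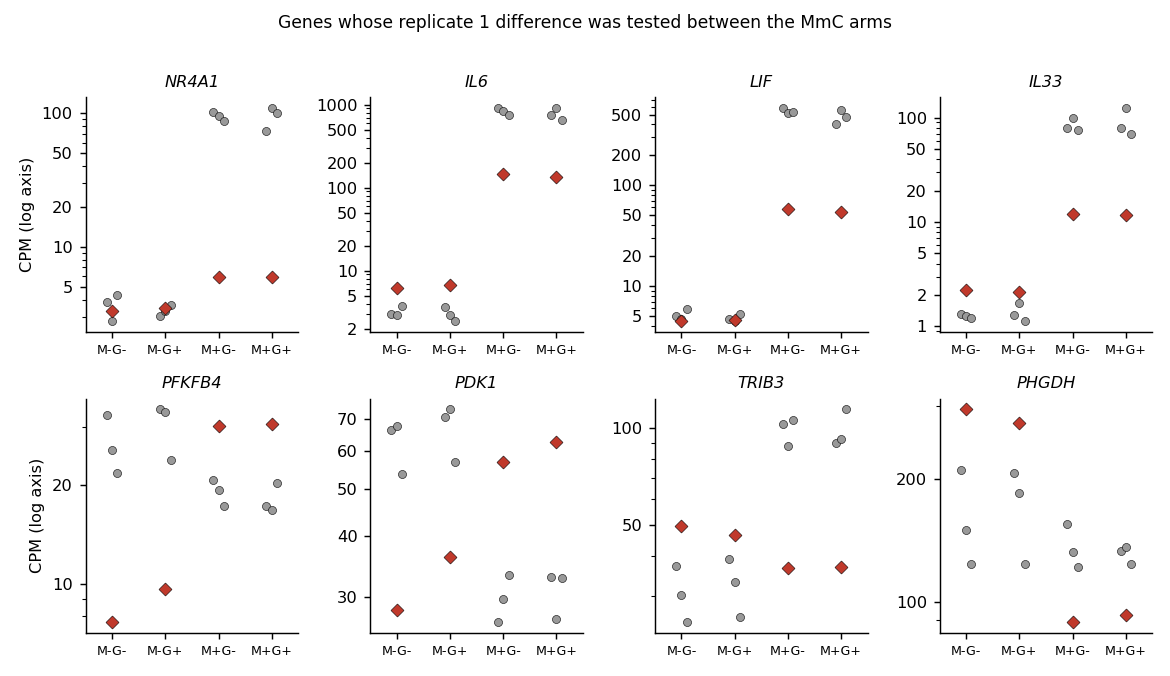
CPM on a log axis of 8 genes in the 4 treatment groups (M for MmC, G for GDF11), with replicate 1 as red diamonds and replicates 2 to 4 as grey circles. NR4A1, IL6, LIF and IL33 have the diamonds far below the circles in both MmC+ groups. For PFKFB4 and PDK1 the diamonds are below the circles without MmC and above them with it, and for TRIB3 and PHGDH above without MmC and below with it.

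Glycolysis and hypoxia genes lay on opposite sides in the arms. Without MmC 24 of 29 were called lower in replicate 1 and none higher (median -0.66), and with MmC 16 were higher and 1 lower (median 0.32). The shares over all genes were 6.02% lower and 7.24% higher without MmC, and 16.9% higher and 16.8% lower with it. The interaction was positive for 22 and negative for 1, against 4.58% and 5.34% of all genes, and on sums positive for 13 and negative for none. Over the list the median MmC difference was -0.35 in replicates 2 to 4 and 0.68 in replicate 1. PFKFB4, which makes the activator of phosphofructokinase, was at 7.67 and 9.63 CPM without MmC against 21.6 to 33.9 (median 29) and at 30.2 and 30.6 with MmC against 16.8 to 20.6 (median 18.2) (interaction 2.43 ± 0.22, adjusted p = 3.1e-06, adjusted p on sums = 0.00205). PDK1, which shuts pyruvate out of the mitochondrial cycle, was at 28.2 and 36.3 against 53.8 to 73.2 (median 66.9) and at 56.9 and 62.7 against 26.6 to 33.3 (median 31.2) (interaction 1.99 ± 0.18, adjusted p = 3.1e-06, adjusted p on sums = 0.00251). Neither overlapped the other numbers in either arm. BNIP3, a mitophagy receptor induced by hypoxia, was at 100.5 and 132 against 182 to 297 (median 254) and at 314 and 339 against 188 to 225 (median 207) (interaction 1.78 ± 0.18, adjusted p = 1.3e-05, adjusted p on sums = 0.00835). SLC2A1, the glucose transporter GLUT1, was at 41.9 and 52.1 against 95.5 to 107 (median 100.1) and at 142 and 145 against 91.8 to 112 (median 101) (interaction 1.61 ± 0.12, adjusted p = 7.2e-07, adjusted p on sums = 0.00186). PGK1, phosphoglycerate kinase, had an interaction of 1.53 ± 0.17 (adjusted p = 4e-05, adjusted p on sums = 0.0149) and HK2, hexokinase 2, of 0.63 ± 0.15 (adjusted p = 0.0144, adjusted p on sums = 0.184), so that the HK2 call was lost on sums. VEGFA, the angiogenic factor, had the 1 negative interaction and was lower in both arms, at 134 and 122 against 167 to 204 (median 185) and at 191 and 192 against 371 to 506 (median 421), and ADM, adrenomedullin, was above the others with MmC, at 578 and 566 against 303 to 488 (median 349.6). SLC2A1 and PGK1 were singled out with their values known.

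The integrated stress response and amino acid genes lay the other way round. Without MmC 14 of 23 were higher in replicate 1 and none lower (median 0.60), and with MmC 3 were higher and 11 lower (median -0.36). Of all genes, 7.24% were higher and 6.02% lower without MmC, and 16.9% and 16.8% with it. The interaction was negative for 15 and positive for none, against 5.34% and 4.58% of all genes, and on sums negative for 8. TRIB3, a pseudokinase induced by this response, was at 49.6 and 46.4 CPM without MmC against 24.8 to 39.1 (median 31.6) and at 36.5 and 36.8 with MmC against 88.1 to 114 (median 97.7) (interaction -2.03 ± 0.22, adjusted p = 2.6e-05, adjusted p on sums = 0.00753). SLC3A2, the heavy chain of amino acid transporters, was at 113 and 118 against 81.2 to 115 (median 99.3) and at 90.2 and 89.6 against 217 to 285 (median 235) (interaction -1.65 ± 0.19, adjusted p = 4.8e-05, adjusted p on sums = 0.0126), overlapping the others without MmC. PHGDH, the first enzyme of serine synthesis, was at 295 and 274 against 124 to 209.9 (median 167) and at 89.1 and 92.8 against 121 to 155 (median 132) (interaction -1.33 ± 0.26, adjusted p = 0.00389, adjusted p on sums = 0.0758). PSAT1, the next enzyme of that pathway, was higher in both arms, at 87.6 and 104 against 27.7 to 44.4 (median 39.7) and at 43.7 and 46.4 against 32.6 to 36.5 (median 34.5). ATF4, the transcription factor of this response, was at 421 and 418 against 256 to 433 (median 381) and at 328 and 342 against 351 to 381 (median 371) (interaction -0.35 ± 0.21, adjusted p = 0.338, adjusted p on sums = 0.633). TRIB3, SLC3A2, PHGDH and ATF4 were named with their values known.

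The medians of the proliferation lists were below 0 in both arms, but without MmC the difference lay mostly in the GDF11- library. The summed level of the G1/S list was 1051 CPM in the MmC-/GDF11- and 1531 in the MmC-/GDF11+ replicate 1 library, against 1520 to 2242 in the others, and that of the mitosis list 1479 and 2337 against 2358 to 3240. On sums over GDF11, 1 of 36 G1/S and 6 of 36 mitotic genes were lower without MmC and 29 and 33 with it. By library, in G1/S and DNA replication 11 of 36 were lower without MmC and 30 with it, and the interaction was negative for 13 and positive for 1 (on sums 3 negative). In mitosis 18 and 34 of 36 were lower, and the interaction was negative for 18 (on sums 5). RRM2 had an interaction of -1.50 ± 0.24 (adjusted p = 0.00104, adjusted p on sums = 0.00863), whereas that of CDC20 was -0.68 ± 0.24 (adjusted p = 0.0907, adjusted p on sums = 0.288). Most p53 targets had differences of similar size in the arms, with 4 positive and 3 negative interactions among 28, and ZMAT3 at -0.17 ± 0.18 (adjusted p = 0.611, adjusted p on sums = 0.788). In the collagen list 3 were positive and 2 negative, and COL3A1, the fibrillar type III chain, differed by 0.48 ± 0.15 without and 1.83 ± 0.15 with MmC (interaction 1.35 ± 0.23, adjusted p = 0.00121, adjusted p on sums = 0.0406).

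Ribosome biogenesis genes were lower over all groups, 23 of 28 called and none higher (median -0.41). Within the arms 12 were lower without MmC and 23 with it, and on sums 0 and 15. FBL, the fibrillarin that methylates ribosomal RNA, was among the 23 of all groups. It was at 109 and 117 CPM without MmC against 141 to 194 (median 151) and 45.6 and 48.6 with MmC against 69 to 89.6 (median 75). None of 37 cytosolic ribosomal protein genes and none of 15 mitochondrially encoded transcripts was called in either direction over all groups. Of 33 nuclear-encoded respiratory chain genes 1 was higher and 3 lower, against 15.1% and 15.5% of all genes. Of 24 sterol synthesis genes 7 were lower and none higher, INSIG1, which holds back SREBP processing (-0.72 ± 0.11), among them. Of 18 fatty acid synthesis genes 4 were lower and 3 higher, near the shares over all genes. SREBF1, which encodes SREBP1, was at 383 and 285 without MmC against 521 to 678 (median 594) and at 155 and 150.3 with MmC against 239.6 to 357 (median 270.5), and SCD, the stearoyl-CoA desaturase, at 488 and 393 against 797 to 1117 (median 835) and 122 and 112 against 176 to 259 (median 191). Both were below every other library of their arm, and ME1, malic enzyme, was higher (0.62 ± 0.12).

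The list counts of this paragraph are over all groups, where 15.5% of all genes were called lower and 15.1% higher. Of 10 metallothionein and zinc transport genes tested 5 were lower and 1 higher. MT2A was at 233 and 265 CPM without MmC against 409 to 531 (median 451) and at 560.1 and 591 with MmC against 844 to 1490 (median 1178), while the zinc importer SLC39A8 was at 121 and 90.6 against 40.1 to 52.5 (median 49.6) and 286 and 271 against 134 to 201 (median 143). Metallothioneins are near-identical copies, so reads may be split among them. Of 18 complement and acute-phase genes 10 were higher and none lower, with C3, the central complement component, at 332 and 189 against 71.8 to 121 (median 94.4) without MmC and 2482 and 2365 against 1351 to 1632 (median 1450) with it. Of 25 WNT pathway genes 11 were higher and 1 lower. WNT2, a secreted ligand, was at 93.7 and 79.5 against 22.8 to 36.5 (median 33.4) and at 19.6 and 21.1 against 7.27 to 7.83 (median 7.49), and WNT5A, picked with its values known, at 87.8 and 82.9 against 43.2 to 52.8 (median 49.2) and at 129 and 124 against 186 to 225 (median 200.5) (interaction -1.49 ± 0.13, adjusted p = 3.1e-06, adjusted p on sums = 0.00568). The WNT2 difference was thus in the same direction in both arms and the WNT5A difference in opposite directions. Of 17 IGF system genes 6 were higher and 2 lower, with the binding protein IGFBP7 at 0.91 ± 0.15. Of 19 circadian clock genes 8 were lower and none higher, with the repressor NR1D1 at 28.4 and 28 with MmC against 71.2 to 89.1 (median 79).

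The shares called in the lists that follow are to be read against 15.1% higher and 15.5% lower over all genes, and several lie near them. Of 24 adipocyte genes 6 were higher and 4 lower, with FABP5, a fatty acid carrier (-1.39 ± 0.24), opposite to CD36. Of 15 osteoblast and chondrocyte genes 6 were higher and 3 lower, ALPL, alkaline phosphatase (0.90 ± 0.076), and SOX9, the cartilage regulator (-1.07 ± 0.18), standing on opposite sides. BMP/SMAD1/5 targets gave 5 higher and 5 lower of 14, with the antagonist NOG, noggin, at 12.3 and 13 CPM with MmC against 2.64 to 4.8 (median 3.64) and ID3 at 20.1 and 19 against 47.7 to 83.3 (median 68.8). TGF-beta/SMAD2/3 targets gave 7 higher and 4 lower of 23, with THBS1, thrombospondin 1, at 3897 and 4080 against 1280 to 1743 (median 1527) without MmC and 9106 and 8648 against 4891 to 5183 (median 5022) with it. Interferon-stimulated genes gave 2 higher and none lower of 34 over all groups, with medians of 0.35 without MmC and -0.45 with it. Among 28 lysosomal genes 11 were higher and 3 lower, and CTSK, cathepsin K, differed by 0.73 ± 0.10. The other lists gave 5 higher and 3 lower of 21 NRF2 targets, 6 and 5 of 19 glucocorticoid and FOXO targets, 2 and 7 of 18 heat shock genes, 1 and 5 of 22 unfolded protein response genes, 3 and 2 of 22 autophagy genes, and 2 and 1 of 11 nuclear-retained long noncoding RNAs, of which SNHG1 was lower (-1.04 ± 0.25).

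No single gene passed the test for a difference of replicate 1 between GDF11+ and GDF11-, taken over both MmC arms. The interaction of replicate 1 with GDF11 was called for 0 of 19103 genes (0%) by edgeR, with 272 at an unadjusted p under 0.05. Chance alone would give more than 272 at that threshold. This fit had no replicate 1 term for each MmC arm, so differences of replicate 1 between the MmC arms stayed in its spread. The 0 calls therefore do not show that GDF11 differences were absent. With the same terms limma-voom gave 0 with 259 and DESeq2 0 with 252, and 37 genes were called without a filter on low counts. The quartiles of this interaction over all genes were -0.134 and 0.119 on the log2 scale. List medians were 0.45 for mitosis, 0.38 for G1/S and 0.38 for interferon-stimulated genes, against 0.0007 over all genes. The lowest was -0.22, for proteoglycans and elastic matrix. The contrast averages the MmC arms, but in replicate 1 the summed mitosis list differed mainly without MmC. It was at 1479 CPM in GDF11- and 2337 in GDF11+ there, against 347.4 to 348.7 with MmC. A GDF11 difference of replicate 1 within a single MmC arm was not tested.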

How the data were processed

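Poly(A) RNA libraries were sequenced by the authors, aligned to GRCh38 with HISAT2 2.2.1 and counted per gene with featureCounts 2.0.1, per the submitters' processing notes. The deposited values are raw read counts per gene and library. The strand setting and the treatment of shared reads are not given in the sources used here. Counts of 60649 genes were filtered (filterByExpr, minimum count 10, total 15), leaving 19103, scaled by TMM and fitted with edgeR 4.0.16 (robust quasi-likelihood, R 4.3.3) with the treatment group as covariate. P-values were adjusted by Benjamini-Hochberg at 0.05, and CPM were computed with TMM-scaled library sizes. Standard errors were the log2 difference over the square root of the F statistic. The interaction of replicate 1 with MmC came from a fit with a replicate 1 term in each MmC arm. That with GDF11 came from a separate fit with a replicate 1 term in each GDF11 arm. The latter fit had no replicate 1 term for each MmC arm, so differences of replicate 1 between the MmC arms stayed in its spread. limma 3.58.1 and DESeq2 1.42.0 served as alternatives. The scripts were tested on simulated data. Libraries were grouped by their labels. The replicates are cultures of 1 line, so p-values measure only the spread between these cultures. The replicate number, the 42 gene lists and the tests were chosen with earlier results of these data known. Genes named were the 10 highest and 10 lowest protein-coding genes over all groups with replicate 1 extreme in every group, the 5 highest and lowest in each arm and interaction, the 4 members of each list with the largest differences, and markers (mean log2 CPM at least 1). The genes of each arm and interaction were protein-coding and called, and those of an arm had replicate 1 extreme in both its groups. Gene coordinates are from GENCODE, matched on gene ID without its version.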

Additional observations from a re-analysis of the deposited data

Results flagged for a closer look

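Dixon's gap ratio, set against its 95% critical value for 4 libraries, was computed for the mean level of each list in each group, the named genes and library measures. These measures were total counts, genes with a count, mitochondrial share, share of the top genes, TMM factor and collagen share. Chance marks about 1 in 20 groups, and the number 1 had been chosen because it stood apart. It marked 18 of 168 list and group pairs, 17 of them for replicate 1, over 14 lists. The share of counts from COL1A1, COL1A2 and COL3A1 was marked in 3 groups, and no other library measure was marked. Of 120 pairs of a group and 1 of 30 named genes 37 were marked, over 18 genes. All 37 were for replicate 1, but these genes had been chosen for their replicate 1 differences, so the direction of the marks follows from the choice.

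The replicate 1 difference in MmC+ differed from that in MmC- for 1895 genes by the interaction test. Among the named genes the difference between arms was 2.55 for GDF5, 2.52 for TCAF2, 2.43 for PFKFB4, 1.99 for PDK1 and 1.78 for BNIP3 on the log2 scale. It was -4.52 for HAS1, -4.33 for IL11, -4.05 for BMP6, -4.05 for FNDC1 and -3.94 for NR4A1.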

How the results depend on the processing

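No result reversed. With 1 library left out at a time, the counts called were 3551 to 6064 over all groups, 421 to 2571 within MmC-, 2977 to 6870 within MmC+, 624 to 2029 for the interaction with MmC and 0 to 1 for that with GDF11. Lists with most members called numbered 9 to 19, against 15. Without replicate 3 of every group, 1649 were called within MmC- and 765 for the interaction with MmC. From only GDF11- libraries 2367 genes were called and from only GDF11+ 1311 (7 and 3 lists), and from only MmC- libraries 1484, 65.8% of them higher against 54.6%. From only GDF11+ 63.4% were higher against 49.3%. With the replicate number as a block, 4317 were called within MmC- and 3674 for the interaction. The balance of calls then turned, to 2141 higher and 2176 lower within MmC-, against 1383 and 1150. For the interaction it turned to 1906 higher and 1768 lower, against 875 and 1020. Deviations of same-numbered libraries correlated at 0.0293 to 0.818, and at -0.00833 to 0.476 among numbers 2 to 4. Across the arms the latter were 0.184 to 0.271 for number 2, 0.127 to 0.178 for number 4 and -0.00833 to 0.0767 for number 3. The main fits did not take the numbers as pairs across arms, whereas the fits with a block included the number. Within an arm the GDF11- and GDF11+ libraries of numbers 2 to 4 correlated at 0.101 to 0.42 (MmC-) and 0.177 to 0.476 (MmC+), so treating them as independent understates the error, and the sums below take each such pair as 1 unit. With the block as a random effect the counts were 3467 over all groups, 1419 within MmC- and 3165 for the interaction. Of the last, 1622 were higher and 1543 lower. Against a 2-fold difference (glmTreat) they were 135, 38, 480 and 94, with 0 lists. Sums over GDF11- and GDF11+ of a number, an alternative chosen after seeing the data, gave 2514, 606, 3261 and 315, with 7 lists. Without a filter 37 genes had an interaction with GDF11. The causes of these changes were not tested. Depth limits the genes near the count minimum.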
